A study of Mus musculus with 70 samples.

Results

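The genes described here encode proteins that package the nucleus: the lamins Lmnb1, Lmnb2 and Lmna with the lamin B receptor Lbr, and the high mobility group (HMG) proteins Hmgb1, Hmgb2, Hmgb3, Hmga1 and Hmga2. They were picked by gene symbol, and 9 of the 21859 genes in the table carry one of these symbols. The study asked how 2 kinds of senescence, a lasting stop of cell division, look in the cells that enter it first and in the cells around them. Doxycycline switched on a constitutively active kinase, either MEK1 (caMEK1, which drives ERK, called oncogene-induced) or MKK6 (caMKK6, which drives p38, called stress-induced), in C57BL/6 cells labelled male. Values are FPKM (fragments per kilobase of transcript, scaled to the mapped reads of the library) from bulk RNA sequencing of 70 libraries in 26 groups.

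Mouse embryonic fibroblasts (MEFs), taken from embryos whose head and organs had been removed, gave 8 groups of 3 libraries. For each kinase there were cells kept without doxycycline for 2 days and cells given 2 µg/mL for 2, 4 or 7 days. MEFs without doxycycline were passaged and exist only at day 2, so days 4 and 7 differ from them in time as well as in kinase. There were no control MEFs on doxycycline, so the kinase and doxycycline itself cannot be told apart in MEFs at any day. The labels do not say whether the 3 libraries of a MEF group came from separate embryos or cultures, and the p values then measure only the spread between these libraries. In chimeric mice, mCherry marked the cells that carry the active kinase and GFP their neighbours. Hepatocytes and colon epithelium were sorted by colour after 7 days on doxycycline. The caMEK1 mice drank 0.2 mg/mL, whereas the controls and the caMKK6 mice drank 2 mg/mL, so kinase and dose cannot be told apart in tissue. Liver and colon each gave 9 groups of 2 or 3 animals: control, caMEK1 and caMKK6 mice, each as GFP cells without doxycycline and as GFP and mCherry cells on it. The label of the control mice names no kinase, although their cells carry both colours. Ages, and the promoter that drives the kinases, are not given in the sources used here.

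Lamins form a meshwork under the inner nuclear membrane. B-type lamins (Lmnb1, Lmnb2) stay attached to the membrane through a lipid anchor and are made in nearly every cell, whereas Lmna, which encodes lamins A and C, is made mostly by differentiated and mechanically loaded cells. Lbr sits in the inner membrane, binds B-type lamins and holds heterochromatin at the nuclear edge. Loss of Lmnb1 is a widely used marker of senescence. HMGB proteins bend DNA through their HMG boxes, and Hmgb1 also leaves senescent or damaged cells and acts as an alarm signal. Hmgb2 and Hmgb3 are typical of dividing and immature cells. HMGA proteins bind the minor groove of AT-rich DNA, are abundant in embryos and tumours, and are components of the dense chromatin foci of oncogene-arrested fibroblasts.

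The promoters of Hmgb2, Lbr and Hmga1 are shown because the first pair belongs to genes that fell in the MEFs under both kinases described below. The last belongs to the gene that rose under caMEK1, although it was lower at day 7 of caMKK6. Each line gives the 250 bases before the first listed RefSeq start of the gene on GRCm38.p6, in the direction of transcription. Hmga1, Hmgb1, Lmna and Lmnb2 each have 2 listed starts, and only the first was searched. They lie at chr8:57511593-57511842 for Hmgb2 (plus strand), chr1:181842402-181842651 for Lbr (minus strand) and chr17:27556324-27556573 for Hmga1 (plus strand). Capitals mark matches, on either strand, to CCAAT, to the cell cycle homology element TTTGAA, to the AP-1 site TGANTCA, to the E2F core TTCCCGC or to the ETS core CCGGAAGT.
Hmgb2: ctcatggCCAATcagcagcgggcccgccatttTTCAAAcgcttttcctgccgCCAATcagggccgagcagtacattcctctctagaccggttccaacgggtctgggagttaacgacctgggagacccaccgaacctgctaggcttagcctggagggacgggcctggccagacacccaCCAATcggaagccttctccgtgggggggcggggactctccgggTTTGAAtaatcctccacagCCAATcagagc
Lbr: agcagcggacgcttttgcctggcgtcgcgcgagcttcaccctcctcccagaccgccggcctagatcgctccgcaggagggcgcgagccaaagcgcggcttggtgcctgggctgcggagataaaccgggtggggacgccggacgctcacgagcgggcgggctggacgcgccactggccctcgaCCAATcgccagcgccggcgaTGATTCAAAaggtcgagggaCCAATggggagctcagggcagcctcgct
Hmga1: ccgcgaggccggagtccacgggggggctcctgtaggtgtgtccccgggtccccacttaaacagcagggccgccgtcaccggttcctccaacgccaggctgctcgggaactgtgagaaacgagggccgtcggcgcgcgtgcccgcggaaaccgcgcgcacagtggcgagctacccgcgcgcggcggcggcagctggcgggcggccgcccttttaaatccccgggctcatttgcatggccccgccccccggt
The Hmgb2 promoter holds 4 CCAAT boxes and 2 cell cycle elements, the nearer of which lies 30 to 25 bases before the start. The Lbr promoter holds 2 CCAAT boxes and 1 cell cycle element, which overlaps 1 match to the AP-1 site. None of these 5 motifs is in the Hmga1 window, which holds 3 GC boxes (GGGCGG, not capitalised). Of 27025 promoters of this length, 34.5% hold CCAAT, 16.3% the cell cycle element, 6.87% the AP-1 site, 3.84% the E2F core, 2.93% the ETS core and 32.9% a GC box. The Hmgb2 and Lbr windows hold 1 GC box each as well. Among the other members, Hmgb3 has 3 CCAAT boxes, 1 cell cycle element and 1 GC box, Hmgb1 has 3 CCAAT boxes, and Hmga2 has 1 E2F core that overlaps a GC box. Lmna and Lmnb2 have 1 GC box each. These are matches of letters and were not tested for binding.

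Depth was recovered from the FPKM steps. It came to 10499019 to 17150052 reads in genes for a MEF library, 9096993 to 14297505 for a liver library and 6358587 to 16647561 for a colon library. Markers matched the labelled tissue: all 10 hepatocyte genes reached 1 FPKM in every liver group, all 11 colon epithelium genes did in every colon group, and 8 or 9 of 9 fibroblast genes did in MEFs. Lymphocyte markers summed to at most 2.818 FPKM in any library. Liver libraries also held endothelial markers at 27.89 to 232.2 FPKM in sum, with all 7 at 1 FPKM or more in every group. Macrophage markers in liver summed to 12.56 to 502.5 FPKM, beside 43210 to 127700 for hepatocyte markers. The part of such cells in the member values was not tested. Some libraries stood apart. Of the 12 caMKK6 MEF libraries, 5 also held the MEK1 transgene at 10.96 to 16.53 FPKM: replicates 2 and 3 without doxycycline, 2 and 3 at day 2 and 2 at day 4. Results on caMKK6 MEFs are therefore also given without them. Those fits keep only replicate 1 of the untreated and of the day 2 caMKK6 cells. A call can be lost there without a smaller change, as for Hmga2 at day 7 (-0.371 with these libraries and -0.389 without). In liver, GFP cells of control mice on doxycycline held 677.8 to 749.6 FPKM of mCherry, and caMEK1 mCherry cells held the transgene at only 5.551 to 14.13 FPKM.

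Without doxycycline, the members were ordered by tissue. MEFs held far more Lmna, Hmga1 and Hmga2 than either epithelium, colon held the most Lmnb2, Lbr, Hmgb1, Hmgb2 and Hmgb3, and hepatocytes held the least of all 9 genes. Lmna had a median of 183.4 FPKM in the 6 MEF libraries (172.6 to 221.1), 70.14 in the 9 colon libraries (53.37 to 100.8) and 6.049 in the 9 liver libraries (4.661 to 6.294). The ranges of the 3 tissues did not touch. Hmga2 ran from 116.2 to 160.9 FPKM in MEFs and from 2.761 to 5.601 in colon. In liver it reached at most 0.0435 FPKM, with a median of 0.01285. Hmgb2 behaved differently, with colon (median 29.85 FPKM) above MEFs (16.13) and liver at 0.5653. Its liver libraries ranged from 0.2156 to 1.0 FPKM, below every MEF library (14.11 or more) and every colon library (18.64 or more).

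**Figure D1:**
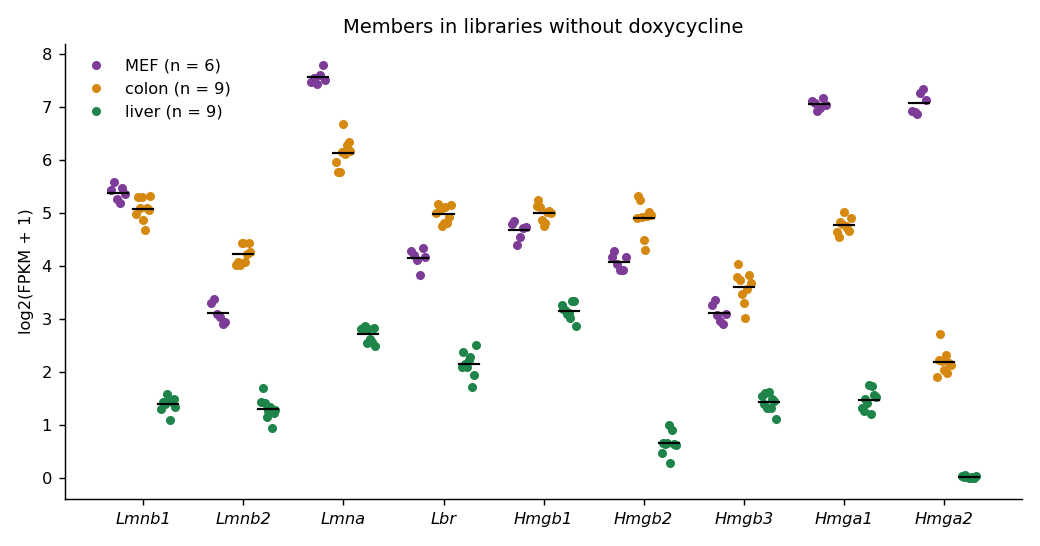
Level of each member as log2(FPKM + 1) in libraries without doxycycline, with 6 MEF, 9 colon and 9 liver libraries as points and the tissue mean as a bar. Liver is lowest for all 9 genes, and Hmga2 spans the tissues most, from 0 in some liver libraries to 160.9 FPKM in MEFs.

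All 9 members differed between each pair of tissues, where the share of all 12368 genes called was 88.8% for MEF against liver (66.9% higher), 85.1% for MEF against colon (41.6% higher and 43.5% lower, with 4 members higher and 5 lower) and 91.3% for colon against liver (74.7% higher). A call therefore says little here, and the size of the differences carries the description. On the log2(FPKM + 1) scale, in which differences of low genes are understated, MEFs exceeded liver by 7.05 ± 0.08 (SE) for Hmga2, 5.57 ± 0.08 for Hmga1 and 4.85 ± 0.08 for Lmna, and by 1.52 ± 0.08 for Hmgb1, the smallest difference of the 9. Between MEF and colon, Lmnb1 differed by 0.31 ± 0.09 and Hmgb1 by -0.33 ± 0.08, and the libraries of both genes overlapped. The Hmgb1 call was lost when libraries were scaled to a common median (-0.12, adjusted p = 0.14). These libraries differ in cell source, handling and RNA input together, and such causes cannot be told apart. In bulk RNA, fewer cells of a type and less RNA per cell cannot be told apart either.

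In MEFs all 3 lamin genes and Lbr had fallen by day 4 under both kinases. The Lbr call at day 4 of caMKK6 (-0.69 ± 0.17) was lost without the libraries that hold the MEK1 transgene (-0.36, adjusted p = 0.327). Under caMEK1, Lmnb1 alone of these genes was called at day 2. Lbr was of like size there (-0.39 ± 0.17, adjusted p = 0.0663) and was called with median scaling (-0.409, adjusted p = 0.041) and voom (-0.412, adjusted p = 0.0477). Under caMKK6, Lmna and Lmnb2 had fallen by day 2, before Lmnb1 or Lbr passed the test.

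Lmnb1, the B-type lamin, stood at 42.4, 46.7 and 37.3 FPKM in caMEK1 MEFs without doxycycline, and at 32.7, 33.6 and 27.6 at day 2, 16.6, 14.4 and 13.1 at day 4 and 10.5, 13.1 and 10.2 at day 7. Every treated library was below every untreated one, and day 2 was clear of day 4. The log2 change was -0.42 ± 0.13 at day 2 (adjusted p = 0.0126), -1.46 ± 0.13 at day 4 and -1.82 ± 0.13 at day 7. The day 2 call rested on single libraries: it was lost without replicate 2 of the untreated cells (-0.341, adjusted p = 0.0681) or replicate 3 of day 2 (-0.332, adjusted p = 0.0728). Under caMKK6 the libraries read 35.6, 43.3 and 40.0 FPKM without doxycycline, 32.9, 33.4 and 35.7 at day 2, 18.8, 18.3 and 21.7 at day 4 and 16.6, 13.7 and 20.2 at day 7. Here day 2 touched the untreated range (-0.21 ± 0.13, adjusted p = 0.194) and the fall had come by day 4 (-0.98 ± 0.13, adjusted p = 6.52e-06).

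Lmnb2, the second B-type lamin, was lower throughout. In caMEK1 MEFs it stood at 8.87, 9.40 and 7.54 FPKM without doxycycline, 8.79, 8.08 and 7.80 at day 2 and 5.39, 5.25 and 3.99 at day 7. Day 2 lay within the untreated range and day 7 lay below it, with a log2 change of -0.71 ± 0.12 (adjusted p = 3.04e-05). In caMKK6 MEFs it went from 7.17, 6.52 and 6.73 FPKM to 3.89, 3.83 and 4.29 already at day 2, and was 4.04, 3.13 and 3.82 at day 7. The 3 treated groups overlapped one another, and the change was -0.64 ± 0.12 at day 2 (adjusted p = 0.00034) and -0.75 ± 0.12 at day 7.

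Lmna, the most abundant of the lamin genes, showed the same contrast between kinases. Its caMEK1 libraries stood at 176, 186 and 173 FPKM untreated, 176, 164 and 195 at day 2 and 136, 136 and 153 at day 7. The first 2 groups overlapped, and day 7 lay below both (-0.33 ± 0.08, adjusted p = 0.00137). Its caMKK6 libraries went from 194, 221 and 181 FPKM to 131, 117 and 124 at day 2 and stood at 132, 122 and 126 at day 7. All treated caMKK6 libraries lay below all untreated ones, with a log2 change of -0.67 ± 0.08 at day 2 (adjusted p = 6.02e-06) and -0.64 ± 0.08 at day 7. The 2 lamin types thus fell to unequal degrees: FPKM of Lmnb1 over FPKM of Lmna went from 0.236 ± 0.018 to 0.080 ± 0.0151 at day 7 of caMEK1, and from 0.200 ± 0.0194 to 0.133 ± 0.0246 under caMKK6 (SD, n = 3). At day 2 of caMKK6 that ratio was higher than without doxycycline, at 0.275 ± 0.0206.

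Lbr, the membrane receptor of B-type lamins, fell under both kinases. It stood at 18.5, 17.4 and 16.4 FPKM in untreated caMEK1 MEFs and at 14.7, 13.2 and 11.3 at day 2, 11.2, 9.54 and 6.52 at day 4 and 8.22, 8.28 and 5.44 at day 7. In caMKK6 MEFs it went from 13.2, 19.2 and 17.03 to 7.76, 7.21 and 8.75 at day 7. The day 7 libraries lay below all untreated ones in both series, with changes of -1.17 ± 0.17 (adjusted p = 4.73e-06) and -0.96 ± 0.17 (adjusted p = 0.000131). The difference between these changes was -0.21 ± 0.23 (adjusted p = 0.524). The caMKK6 value at day 7 was -0.675 and no longer called (adjusted p = 0.0514) without the libraries that hold the MEK1 transgene.

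**Figure D2:**
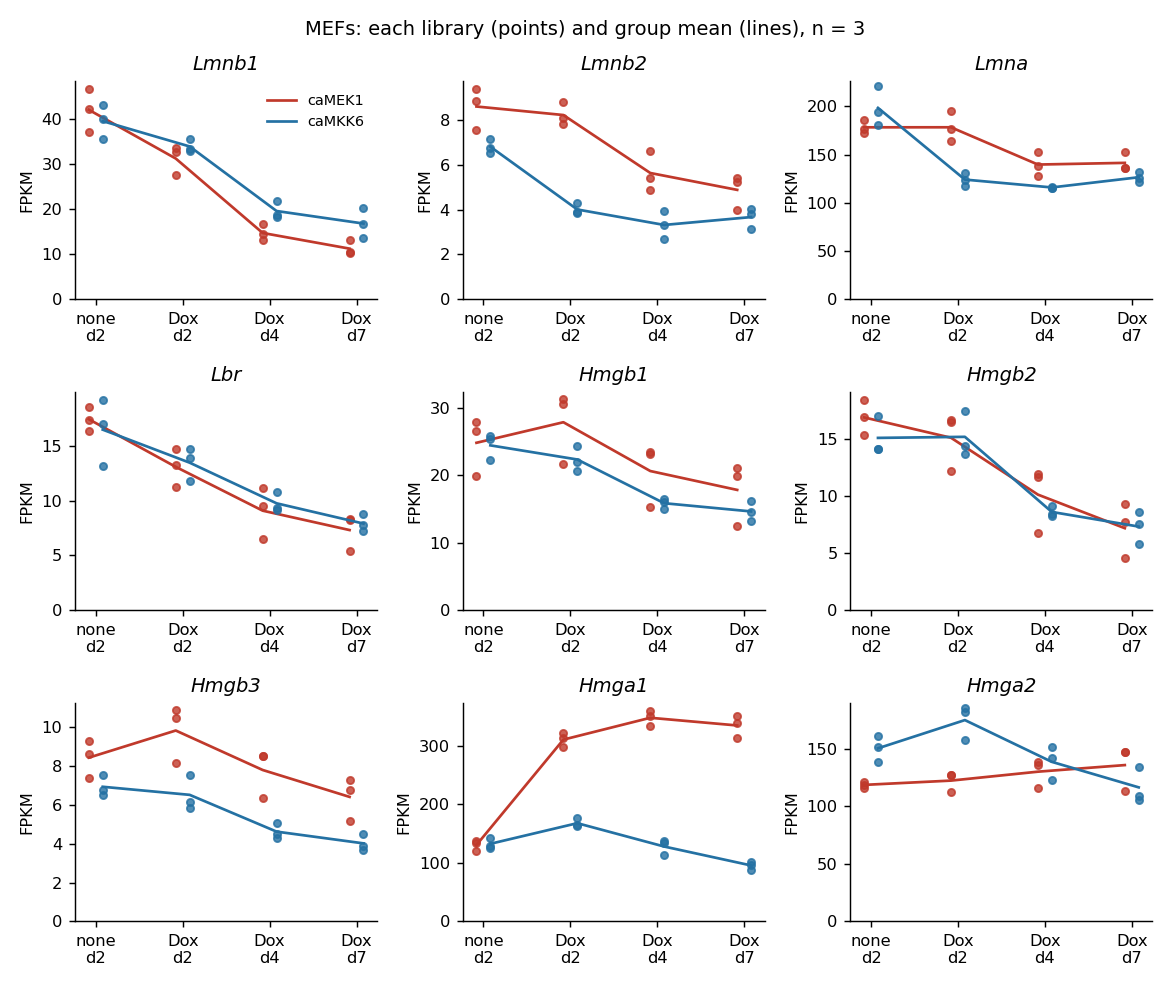
FPKM of each member in MEFs without doxycycline (day 2) and with it at days 2, 4 and 7, each point 1 library and each line the mean of 3, for caMEK1 (red) and caMKK6 (blue). Lmnb1, Lbr and Hmgb2 have their lowest means at day 7 under both kinases, and Hmga1 separates them, at 313.04 to 350.75 FPKM in caMEK1 and 88.373 to 101.59 in caMKK6 libraries at day 7.

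None of the 3 HMGB genes passed the test at day 2 under either kinase. Hmgb2 fell under both by day 4, Hmgb1 and Hmgb3 by day 4 under caMKK6 and by day 7 under caMEK1. The 3 calls at day 4 of caMKK6 were lost without the libraries that hold the MEK1 transgene (Hmgb2 -0.643, Hmgb1 -0.43 and Hmgb3 -0.461, adjusted p = 0.191, 0.34 and 0.129). Hmgb2, a protein of dividing cells, stood at 16.9, 18.4 and 15.4 FPKM in untreated caMEK1 MEFs, 12.0, 11.7 and 6.72 at day 4 and 9.33, 7.69 and 4.53 at day 7. All libraries of days 4 and 7 were below all untreated ones (-0.72 ± 0.20, adjusted p = 0.00511, and -1.17 ± 0.20, adjusted p = 5.36e-05). In caMKK6 MEFs it went from 14.1, 14.1 and 17.03 to 8.64, 5.83 and 7.51 FPKM at day 7, again with no overlap (-0.96 ± 0.20, adjusted p = 0.000949). Without the libraries that hold the MEK1 transgene that change was -0.874 (adjusted p = 0.0613).

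Hmgb1, the chromatin protein that also acts as an alarm signal, spread widely under caMEK1: 26.7, 27.9 and 19.95 FPKM untreated and 21.2, 19.95 and 12.4 at day 7. The groups touched, with replicate 3 lowest in each. The log2 change of -0.47 ± 0.18 (adjusted p = 0.0288) was lost without untreated replicate 1 (-0.419, adjusted p = 0.092), untreated replicate 2 (-0.387, adjusted p = 0.114) or day 7 replicate 3 (-0.248, adjusted p = 0.223). In caMKK6 MEFs Hmgb1 went from 22.3, 25.3 and 25.8 to 14.5, 13.3 and 16.2 FPKM at day 7. These groups did not overlap (-0.70 ± 0.18, adjusted p = 0.00439), although the call was lost without the libraries that hold the MEK1 transgene (-0.575, adjusted p = 0.164). The message of Hmgb1 says nothing of where the protein was.

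Hmgb3, the third HMGB protein, stood at 8.63, 9.31 and 7.39 FPKM in untreated caMEK1 MEFs and at 7.31, 6.79 and 5.15 at day 7. All 3 day 7 libraries were lower, and the change of -0.35 ± 0.13 (adjusted p = 0.0238) was lost without the same 3 libraries as that of Hmgb1 (-0.338, -0.288 and -0.226, adjusted p = 0.0623, 0.101 and 0.155). In caMKK6 MEFs Hmgb3 went from 6.80, 6.49 and 7.54 to 4.51, 3.69 and 3.87 FPKM at day 7. This change was called (-0.66 ± 0.13, adjusted p = 0.000485). The difference between the kinases in these changes was not called for any HMGB gene at day 7 (Hmgb1 0.23 ± 0.26, adjusted p = 0.52; Hmgb2 -0.21 ± 0.29, adjusted p = 0.599; Hmgb3 0.31 ± 0.18, adjusted p = 0.204).

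Hmga1 was the only member called higher under caMEK1, and the kinases moved it in opposite directions by day 7. It stood at 137, 134 and 120.2 FPKM in untreated caMEK1 MEFs and at 321, 297 and 312 after 2 days. It remained at 334, 349.5 and 358 at day 4 and 351, 339 and 313 at day 7. Every treated library exceeded every untreated one, by 2.379, 2.665 and 2.565 times in the means (log2 change 1.25 ± 0.08, adjusted p = 1.17e-10, at day 2 and 1.35 ± 0.08, adjusted p = 1.66e-11, at day 7). In caMKK6 MEFs Hmga1 started at 125, 142 and 129 FPKM, rose to 176, 163 and 164 at day 2, stood at 133, 137 and 113 at day 4 and fell to 88.4, 102 and 96.4 at day 7. Day 2 was above and day 7 below all untreated libraries (0.34 ± 0.08, adjusted p = 0.00215, and -0.47 ± 0.08, adjusted p = 9.31e-05).

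The difference between kinases in the change of Hmga1 was 0.91 ± 0.11 at day 2 (adjusted p = 4.07e-06) and 1.82 ± 0.11 at day 7 (adjusted p = 1.34e-10). It held in every alternative tried, including each library left out. Hmga1b, a near-identical copy that could share reads, lay at 0.85 to 4.43 FPKM in MEFs.

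Hmga2, the other HMGA gene, passed the test against untreated cells only at day 7 of caMKK6. Its caMEK1 libraries stood at 121, 119 and 116 FPKM untreated and 147, 147 and 113 at day 7. Replicate 3 did not share the higher level of the other two, and the change of 0.18 ± 0.11 was not called (adjusted p = 0.162), whereas it was called with the replicate number as a block (adjusted p = 0.0239) and without day 7 replicate 3 (0.308, adjusted p = 0.0219). In caMKK6 MEFs Hmga2 went from 152, 161 and 139 to 186, 182 and 158 FPKM at day 2 and to 109, 134 and 106 at day 7. The day 2 difference (0.22 ± 0.11, adjusted p = 0.135) was called only with that block (adjusted p = 0.0161) or with median scaling (adjusted p = 0.0429), of the alternatives that kept every library. Day 7 lay below all untreated libraries (-0.37 ± 0.11, adjusted p = 0.0118), but the call was lost without untreated replicate 2 (-0.322, adjusted p = 0.0526), without day 7 replicate 3 (-0.307, adjusted p = 0.0549) and without the libraries that hold the MEK1 transgene (-0.389, adjusted p = 0.0928). FPKM of Hmga1 over FPKM of Hmga2 went from 1.10 ± 0.0549 to 2.48 ± 0.245 at day 7 of caMEK1 and from 0.881 ± 0.0554 to 0.825 ± 0.0777 under caMKK6 (SD, n = 3).

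**Figure D3:**
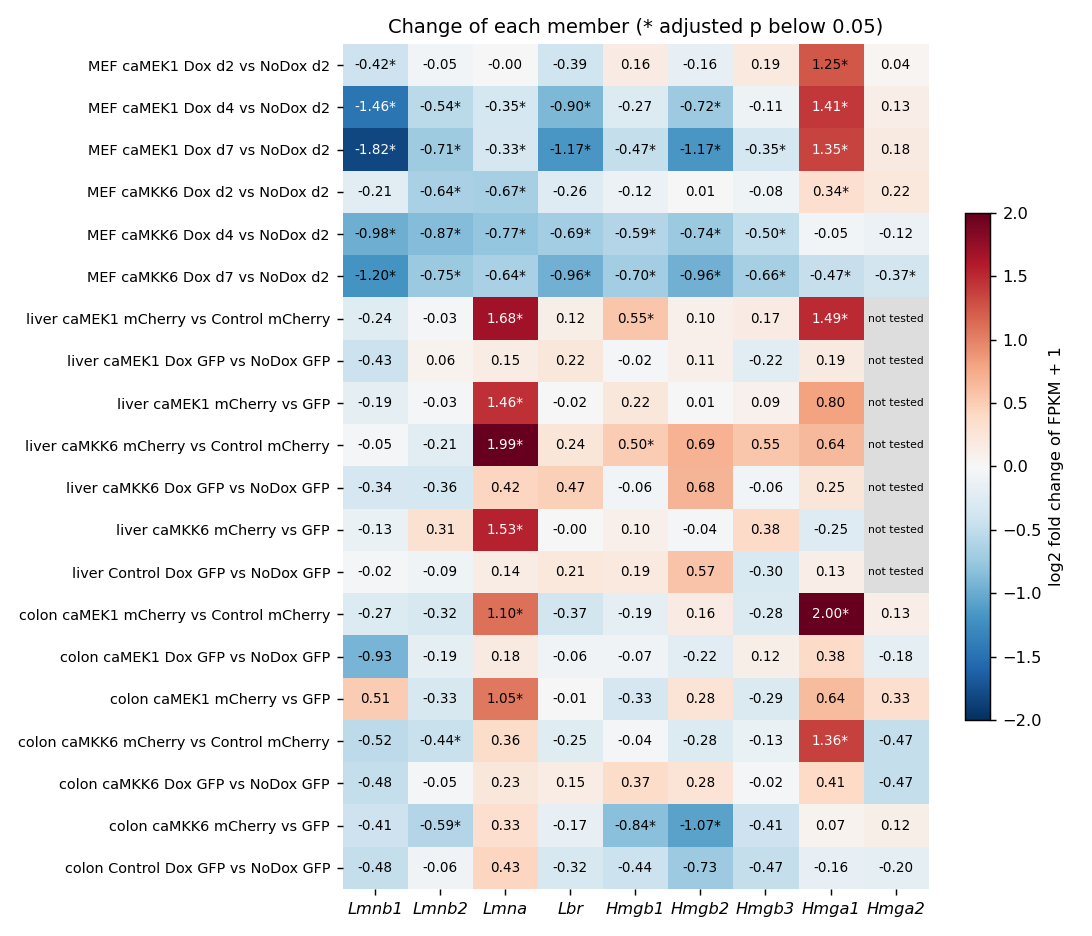
Log2 change of FPKM + 1 for each of the 9 members (columns) in MEF, liver and colon comparisons against untreated, control or GFP cells (rows). Red is higher and blue lower in the group named first, with an asterisk where the adjusted p was below 0.05. The MEF rows are mostly blue except Hmga1 under caMEK1, and the liver rows are red at Lmna in both mCherry comparisons of each kinase.

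Counted together, under caMEK1 1 member rose and 1 fell of 9 at day 2, where 39.3% of all 11347 genes were called, 19.5% higher and 19.8% lower. At day 4 it was 1 and 5 (57.8% called, 28.5% higher and 29.3% lower), and at day 7 1 and 7 (62.1% called, 33.4% higher and 28.7% lower). Under caMKK6, 1 rose and 2 fell at day 2 (39.2% called, 14.3% higher and 24.8% lower). None rose and 7 fell at day 4 (44.8% called, 27.7% lower), and none rose and 9 fell at day 7 (40.8% called, 24% lower). The median member change at day 7 was -0.475 under caMEK1 and -0.703 under caMKK6, beside 0.033 and -0.038 for all genes tested. The steps between days differed in size. From day 2 to day 4, 5 members fell under each kinase (31.3% of genes called under caMEK1, 15.1% lower, and 16.2% under caMKK6, 8.8% lower). Those calls rested in part on single libraries, since leaving out 1 gave 3 to 7 under caMEK1 and 2 to 4 under caMKK6, and 1 remained without the libraries that hold the MEK1 transgene. The calls lost in this way were Lbr and Hmgb2 under caMEK1 (without replicate 1 or 2 of day 2 or replicate 3 of day 4), and Hmgb2 (day 2 replicate 2 or day 4 replicate 3), Hmgb3 (day 2 replicate 2 or 3, day 4 replicate 1 or 2) and Hmga2 (day 2 replicate 1 or 2, day 4 replicate 1 or 3) under caMKK6. From day 4 to day 7 none was called under caMEK1 (3.6% called, 2 members at an unadjusted p below 0.05, 0 called by voom), and only Hmga1 fell under caMKK6 (-0.41 ± 0.08, adjusted p = 0.0101, with 3% of genes called, 1.06% lower). That last call was lost without day 4 replicate 1 or 2 or day 7 replicate 1 (adjusted p = 0.0542, 0.0704 and 0.0514). Without the libraries that hold the MEK1 transgene, 3 members were called at day 4 and 5 at day 7 of caMKK6. Lbr, Hmgb1 and Hmgb2 lost their call at both times, Hmgb3 at day 4 and Hmga2 at day 7, all still with negative values.

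Differences between the kinases were tested directly. The transgenes themselves were not level: MEK1 in caMEK1 MEFs went from a mean of 1079 FPKM at day 2 to 535.0 (459.6 to 645.2) at day 7. MKK6 in caMKK6 MEFs went from 969.6 to 333.9 (129.7 to 666.2). The part of transgene level in the differences was not tested. At day 2 the change was higher under caMEK1 for 3 members (23.5% of genes called, 14.7% higher), Hmga1, Lmna (0.67 ± 0.11, adjusted p = 0.000223) and Lmnb2 (0.59 ± 0.17, adjusted p = 0.014). The Lmnb2 difference was not called without the libraries that hold the MEK1 transgene (adjusted p = 0.0798). At day 7 it was higher for 3 members, Hmga1, Hmga2 (0.56 ± 0.16, adjusted p = 0.00909) and Lmna (0.31 ± 0.11, adjusted p = 0.0404), and lower for Lmnb1 (-0.62 ± 0.18, adjusted p = 0.00996), with 37.8% called, 23.3% higher and 14.5% lower. The Lmna value ran from 0.176 to 0.387 over 19 alternatives and lost its call in 11 of them (adjusted p up to 0.31). Among these were the omission of untreated caMEK1 replicate 1 or 3, caMEK1 day 7 replicate 3, untreated caMKK6 replicate 1 or 2, or caMKK6 day 7 replicate 2 or 3, with values of 0.228 to 0.322. The Hmga2 difference was lost with median scaling (0.423, adjusted p = 0.0518).

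Genes that work beside the members were counted at day 7, when 33.4% of all genes were called higher and 28.7% lower under caMEK1, and 24% lower under caMKK6. Of 13 tested partners of the lamina and of the complex that links it to the cytoskeleton, 4 rose and 6 fell under caMEK1, so the share that rose was near that of all genes. Among them were Nrm (-1.37 ± 0.14), an inner membrane protein related to Lbr, and Tmpo (-0.78 ± 0.12), which encodes the lamin-binding LAP2 proteins, while Lemd2 rose (0.65 ± 0.07). Under caMKK6, 1 rose and 6 fell, with Nrm at -1.07 ± 0.14, Syne3 at -1.07 ± 0.08 and Tmpo at -0.87 ± 0.12. The median partner change was -0.03 (0.03 for all genes) and -0.18 (-0.04 for all genes). Of 5 enzymes that process prelamin A, Icmt, which methylates it, rose under both (0.96 ± 0.08 and 0.59 ± 0.08), and Zmpste24, the protease that matures it, fell under both (-0.55 ± 0.07 and -0.26 ± 0.07). Fntb, a farnesyl transferase subunit, fell under caMEK1 (-0.26 ± 0.08). The other 2 and 3 were not called.

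Among 9 other tested HMG genes, 2 rose and 4 fell under caMEK1 (with Hmgn2 at -0.80 ± 0.25 and Ssrp1, a subunit of the histone chaperone FACT, at -0.62 ± 0.06) and none rose and 4 fell under caMKK6 (Hmgn2 -0.95 ± 0.25, Hmgn3 -0.74 ± 0.14, Ssrp1 -0.54 ± 0.06). Of 13 heterochromatin genes, 7 fell under caMEK1 and 10 under caMKK6, and none rose. Uhrf1 and Dnmt1, which copy DNA methylation, fell by 1.398 ± 0.169 and 0.79 ± 0.10 on the log2 scale under caMEK1 and by 1.203 ± 0.169 and 1.11 ± 0.10 under caMKK6. Cbx5, which encodes HP1 alpha, fell by 0.97 ± 0.11 under caMEK1, and Suv39h2, an H3K9 methyltransferase, by 0.66 ± 0.11 under caMKK6. Of 12 linker and variant histones, 1 rose and 6 fell under caMEK1 (H1f2 -1.57 ± 0.09, H2ax -1.23 ± 0.14, Macroh2a2 -1.04 ± 0.15), and 2 rose and 6 fell under caMKK6 (H1f10 -1.09 ± 0.17, Macroh2a2 -0.77 ± 0.15, H2az1 -0.71 ± 0.17). Of 4 tested receptors of extracellular HMGB1, Cxcr4 (4.04 ± 0.22) and Havcr2 (1.37 ± 0.18) rose under caMEK1 and none was called under caMKK6. These lists were not tested as sets.

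Genes of cell division fell as most members did, but Hmga1 and Hmga2 did not fall with them under caMEK1. Of 33 proliferation genes, 32 fell at day 7 under each kinase, with a median of -1.79 (0.03 for all genes) and -1.35 (-0.04). Their summed level went from a mean of 1009 FPKM without doxycycline to 863.7, 403.9 and 291.8 under caMEK1 and from 950.2 to 807.6, 451.8 and 373.3 under caMKK6. Across the 8 MEF groups the log2 levels of Lmnb1 and Lbr correlated at r = 0.98, Lbr and Hmgb2 at 0.96, Lmnb1 and Hmgb2 at 0.94, and Lmnb2 and Lmna at 0.92. Hmga1 and Hmga2 stood apart from Lmnb1 (r = -0.39 and 0.24) and Lbr (-0.29 and 0.23), whereas Hmga1 and Hmgb3 reached 0.6. These values describe 8 group means that share a fit and a culture series. Macrophage markers in MEFs went from a sum of 26.19 to 47.01 FPKM without doxycycline to 99.86 to 258.6 at day 7 of caMEK1 and from 31.78 to 220.4 to 82.62 to 702.3 under caMKK6, with 6 of the 8 at 1 FPKM or more in these groups and Clec4f at 0. Fibroblast markers, 8 or 9 of 9 at 1 FPKM or more, went from 2061 to 2447 FPKM in sum to 1334 to 1478 under caMEK1 and from 2354 to 2810 to 2165 to 2573 under caMKK6. The part of these lists in the changes of the members was not tested.

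In liver the pattern was another one: Lmna rose in the mCherry cells of both kinases, and no B-type lamin or Lbr passed the test against mCherry cells of control mice. Lmna read 5.57 and 4.55 FPKM in control mCherry cells, 16.1, 31.8 and 12.0 in caMEK1 mCherry cells and 23.9 and 22.1 in caMKK6 mCherry cells. GFP cells of the same mice stayed at 5.39, 7.19 and 5.64 FPKM for caMEK1 and 7.17 and 7.44 for caMKK6. Every mCherry library with an active kinase exceeded every other liver library. The means were 3.947 times the control in caMEK1 (1.68 ± 0.25, adjusted p = 0.000113) and 4.553 times in caMKK6 (1.99 ± 0.28, adjusted p = 8.54e-05). Against GFP cells of the same animals the changes were 1.46 ± 0.23 (adjusted p = 0.000648) and 1.53 ± 0.28 (adjusted p = 0.00437). These 4 calls held in every alternative tried.

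Hmga1 rose in caMEK1 mCherry hepatocytes, as did Hmga2 in a fit that kept low genes. Hmga1 read 1.29 and 0.653 FPKM in control mCherry cells and 4.23, 6.07 and 3.43 in caMEK1 mCherry cells, with 1.82, 2.17 and 2.45 in GFP cells of the same mice. The 3 caMEK1 mCherry libraries were above all of these. The change against control was 1.49 ± 0.35 (adjusted p = 0.00465) and was lost without control replicate 2 (1.257, adjusted p = 0.0756). Against the GFP cells it was 0.80 ± 0.32 (adjusted p = 0.181), and it was called with the animal as a block (0.803 ± 0.161, adjusted p = 0.0162). The copy Hmga1b read 0.6692 to 1.622 FPKM in caMEK1 mCherry cells, 0.2316 to 1.066 in their GFP partners and 0.04958 to 0.2511 in control mCherry cells. How far Hmga1 and Hmga1b share reads was not tested. In caMKK6 mCherry cells Hmga1 read 4.12 and 0.80 FPKM, and in their GFP partners 4.40 and 1.42. The animal of replicate 1 was high in both colours and that of replicate 2 low, so the spread lay between animals. The first of these animals held Hmgb2 at 3.21 and 3.597 FPKM in mCherry and GFP cells, against 0.566 and 0.517 in the other, the latter near the untreated libraries.

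Hmga2, an embryonic gene near 0 in untreated liver, was detected above that level in the 3 libraries of one group. It read 0.544, 0.668 and 0.482 FPKM (52, 48 and 39 reads) in caMEK1 mCherry cells. The GFP cells of these mice gave 0, 0 and 0.0465 FPKM (0, 0 and 4 reads), control mCherry cells 0.0357 and 0.0482 (3 and 4 reads), and caMKK6 mCherry cells 0.0822 and 0.0132 (7 reads and 1). All 3 libraries thus lay above the other 20 in liver. The gene never reached 1 FPKM and was left out by the filter on low values, so it is not among the 8 members tested in liver. In the fit without that filter (16511 genes) the log2(FPKM + 1) change was 0.585 ± 0.04 against control mCherry cells (adjusted p = 8.38e-08), 0.622 ± 0.036 against the GFP cells (adjusted p = 2.33e-08) and 0.578 ± 0.04 against caMKK6 mCherry cells (adjusted p = 1.09e-07). A pseudocount of 1 understates a change at this level.

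**Figure D4:**
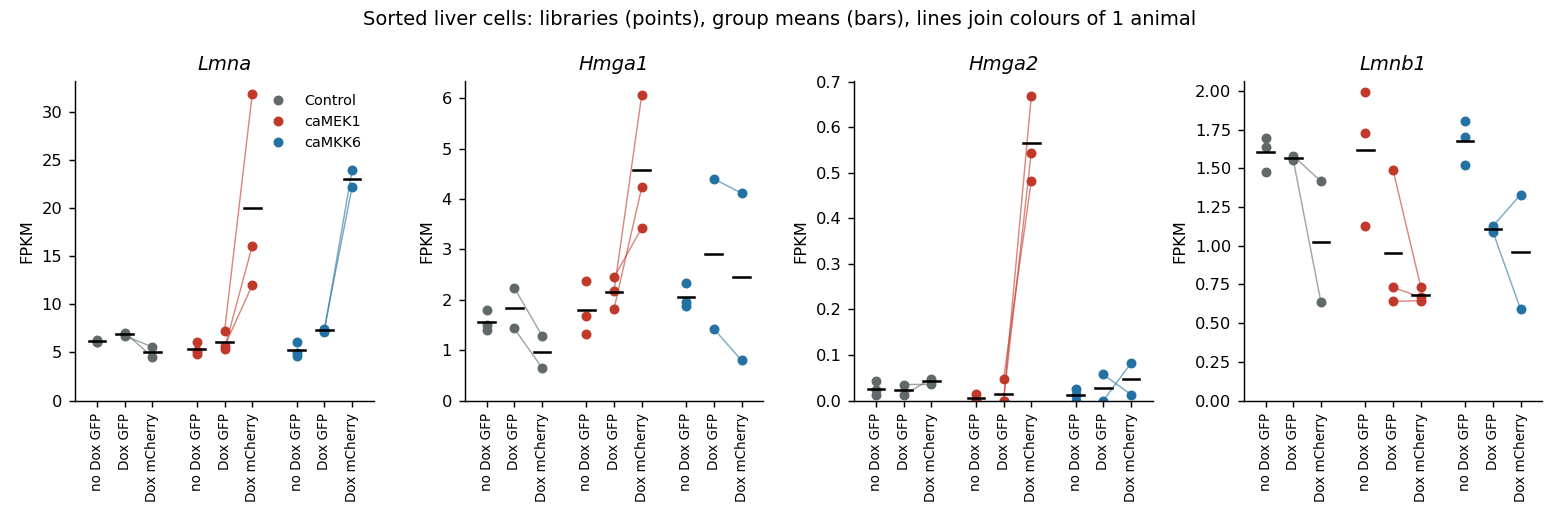
FPKM of Lmna, Hmga1, Hmga2 and Lmnb1 in sorted liver cells by genotype, doxycycline and colour, each point 1 library, bars the group mean and lines the colours of 1 animal. The lines of Lmna rise steeply for both kinases, those of Hmga2 rise for caMEK1, from at most 0.0465 to at least 0.482 FPKM, and those of Lmnb1 show no common direction.

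Lmnb1 was low in liver to begin with, and the depth behind it was 21 to 66 reads per library. It read 1.42 and 0.634 FPKM in control mCherry cells, 0.646, 0.668 and 0.735 in caMEK1 mCherry cells and 0.591 and 1.33 in caMKK6 mCherry cells. The control replicates bracketed the caMEK1 libraries, and neither change was called (-0.24 ± 0.20, adjusted p = 0.416, and -0.05 ± 0.22, adjusted p = 0.903). Against GFP cells of untreated caMEK1 mice (1.99, 1.73 and 1.13 FPKM), all 3 caMEK1 mCherry libraries were lower (-0.623 ± 0.179, adjusted p = 0.0105). The ratio of Lmnb1 to Lmna in FPKM was 0.0408 ± 0.0202 (SD, n = 3) in caMEK1 and 0.0424 ± 0.025 (n = 2) in caMKK6 mCherry cells, against 0.197 ± 0.0812 (n = 2) in control ones. In fibroblasts the ratio fell as Lmnb1 fell further than Lmna, and here the called difference was that of Lmna.

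Hmgb1, the member with the highest FPKM in untreated liver, read 6.10 and 5.15 FPKM in control mCherry cells, 8.05, 10.8 and 7.53 in caMEK1 and 8.85 and 7.90 in caMKK6 mCherry cells. Both kinase groups lay above the control group (0.55 ± 0.16, adjusted p = 0.0154, and 0.50 ± 0.17, adjusted p = 0.0312). Neither call was stable. Against untreated GFP cells of the same genotype the changes were 0.203 (adjusted p = 0.28) and 0.049 (adjusted p = 0.845). The caMEK1 call was lost without control replicate 2 (0.449, adjusted p = 0.159) or caMEK1 replicate 2 (0.411, adjusted p = 0.0683), and the caMKK6 call without control replicate 1 (0.606, adjusted p = 0.0523), control replicate 2 (0.399, adjusted p = 0.198) or caMKK6 replicate 1 (0.429, adjusted p = 0.156) and with median scaling (0.143, adjusted p = 0.527). The remaining members of liver were called in none of the 8 comparisons: over the 23 libraries Lbr ran from 2.29 to 6.30 FPKM, Lmnb2 from 0.353 to 2.26 and Hmgb3 from 0.637 to 2.78.

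Of the 8 members tested in liver, 3 rose and none fell in caMEK1 mCherry cells against control (27.1% of 10371 genes called, 10.7% higher), and 2 rose in caMKK6 mCherry cells (38.2%, 28.9% higher). Lmna alone rose against GFP cells, where 4.71% (3.75% higher) and 4.28% (3.99% higher) of genes were called. No member was called between the mCherry cells of the 2 kinases (31.7% called, 1 member at an unadjusted p below 0.05, 2 by voom), and Lmna differed by -0.31 ± 0.25 (adjusted p = 0.373). Without caMEK1 replicate 2, the highest of its group, the Lmna difference was -0.689 and called (adjusted p = 0.00493). Hmga1 differed by 0.85 ± 0.35 (adjusted p = 0.0745), and it was called with the animal block (0.85, adjusted p = 0.0483), median scaling (1.125), quantile normalization (1.138), voom (1.711) and without caMKK6 replicate 1 (1.604, adjusted p = 0.00392). Hmgb1 was called with median scaling (0.436), quantile normalization (0.522) and voom (0.479), and Hmgb2 without caMKK6 replicate 2 (-1.304, adjusted p = 0.0429). The median change of all genes was 0.25 in caMKK6 mCherry cells against control and -0.31 between the kinases, and member values in those comparisons are read against it. Markers of other cells also differed. The 5 cholangiocyte markers summed to 27.68 to 112.4 FPKM in caMEK1 mCherry cells (3 of 5 at 1 FPKM or more, none at 0), 8.829 to 12.94 in control ones (Cftr at 0) and 3.76 to 4.514 in caMKK6 ones. The 5 neutrophil markers summed to 4.674 to 25.43, 0.9786 to 1.489 (Ly6g and Mpo at 0) and 0.4963 to 0.667 FPKM (Ly6g and Mpo at 0) in these groups. The GFP cells of the caMEK1 mice, with Lmna and Hmga2 low, held neutrophil markers at 10.69 to 58.42 and cholangiocyte markers at 4.761 to 39.31 FPKM. Hepatocyte markers were at 101900 to 127700 FPKM in caMEK1, 56560 to 57750 in control and 43210 to 46670 in caMKK6 mCherry cells. The part of these in the rises of Lmna, Hmga1 and Hmga2 was not tested.

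Related genes in liver are to be read beside that median of 0.25 under caMKK6 and the 28.9% of all genes called higher there. Against control mCherry cells, 3 of 14 lamina partners rose under caMKK6 (Emd, which encodes emerin, 1.00 ± 0.27, Tmpo 0.91 ± 0.16, Nrm 0.69 ± 0.22), as did 5 of 12 linker and variant histones (H1f2 2.61 ± 0.55, H1f0 2.09 ± 0.53, H1f4 1.496 ± 0.426) and 5 of 11 heterochromatin genes, and none of these fell. The lamina partners thus rose no more often than all genes. Under caMEK1, where 27.1% of all genes were called and 10.7% were higher, 1 lamina partner rose and 2 fell. Zmpste24 fell there by 0.82 ± 0.16 on the log2 scale. Proliferation genes were low in all liver libraries, with sums of 12.19 to 35.94 FPKM.

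In colon Lmna and Hmga1 rose in caMEK1 mCherry cells, and caMKK6 mCherry cells held less Lmnb2, Hmgb1 and Hmgb2 than their GFP neighbours. Lmna read 118 and 63.3 FPKM in control mCherry cells, 166 and 209.5 in caMEK1 mCherry cells and 82.4 and 96.5 in GFP cells of the same mice. Both caMEK1 mCherry libraries were the highest of the 23 in colon. The change was 1.10 ± 0.32 against control (adjusted p = 0.0216) and 1.05 ± 0.32 against GFP cells (adjusted p = 0.0363), and with 2 libraries in a group the calls were fragile. The first was lost without control replicate 2 (0.651, adjusted p = 0.263) or caMEK1 replicate 2 (0.929, adjusted p = 0.18). The second was lost without caMEK1 mCherry replicate 2 (0.887, adjusted p = 0.333), GFP replicate 1 (0.942, adjusted p = 0.234) or GFP replicate 2 (1.168, adjusted p = 0.0835), and with no filter (adjusted p = 0.0533). In caMKK6 mCherry cells Lmna read 128, 116 and 94.0 FPKM, a range that held one of the control libraries (0.36 ± 0.29, adjusted p = 0.409).

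Hmga1 read 8.70 and 21.1 FPKM in control mCherry cells, 53.9 and 61.7 in caMEK1 mCherry cells and 54.5, 25.9 and 34.9 in caMKK6 mCherry cells. Both kinase groups lay above the control group, with changes of 2.00 ± 0.35 (adjusted p = 0.000562) and 1.36 ± 0.32 (adjusted p = 0.00623). Control replicate 1 was the lowest Hmga1 library in colon. Without it the caMKK6 change was 0.768 (adjusted p = 0.162). Against untreated GFP cells of the same genotype the caMEK1 change was 1.013 (adjusted p = 0.0244) and the caMKK6 change 0.474 ± 0.288 (adjusted p = 0.243). The GFP cells on doxycycline read 38.7 and 35.0 FPKM in caMEK1 and 36.2, 41.4 and 28.5 in caMKK6 mice, above the 22.5 to 31.5 of untreated GFP cells in all but 1 library. No difference between mCherry and GFP cells was called (0.64 ± 0.35, adjusted p = 0.246, and 0.07 ± 0.29, adjusted p = 0.895). The copy Hmga1b read 9.446 to 10.9 FPKM in caMEK1 mCherry cells and 11.03 to 13.62 in their GFP partners. Untreated caMEK1 GFP cells held it at 0.07728 to 0.3811, control mCherry cells at 2.354 to 3.607 and caMKK6 mCherry cells at 4.052 to 6.222 FPKM. How far Hmga1 and Hmga1b share reads was not tested.

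**Figure D5:**
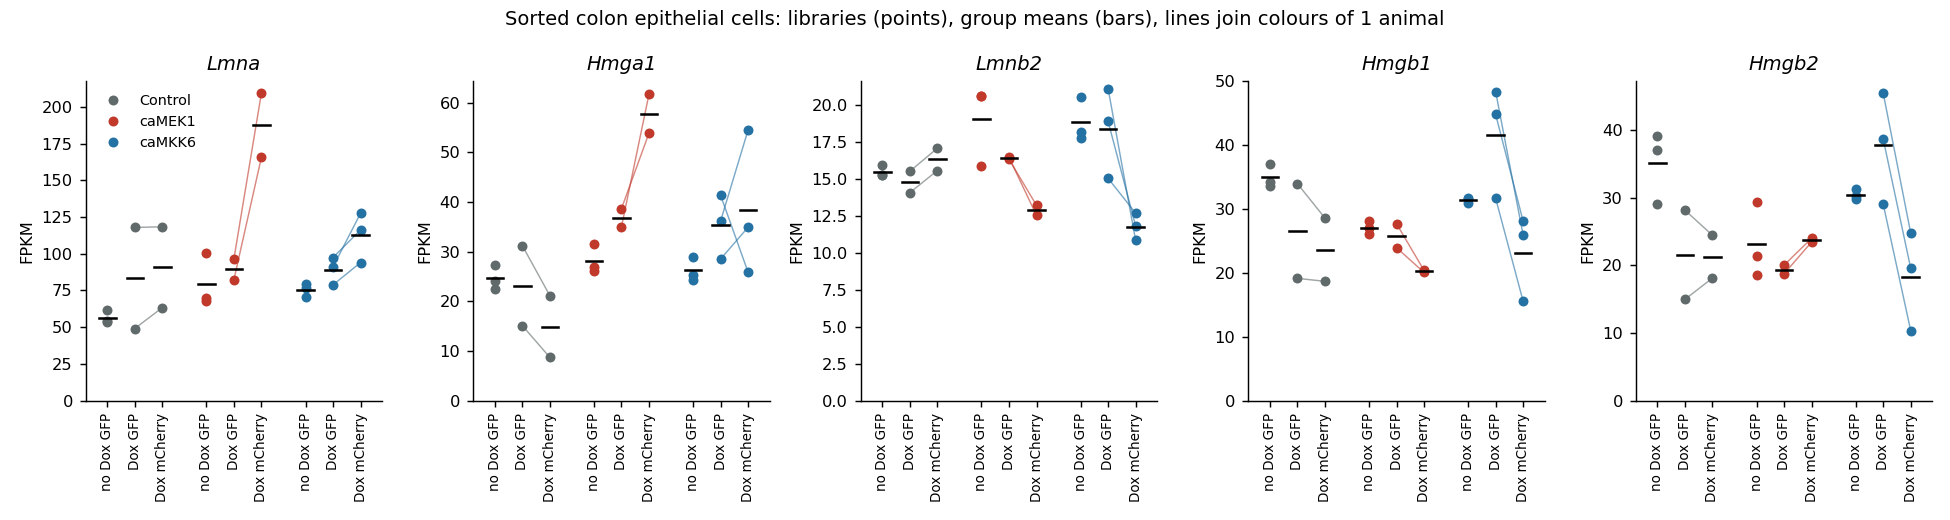
FPKM of Lmna, Hmga1, Lmnb2, Hmgb1 and Hmgb2 in sorted colon epithelial cells by genotype, doxycycline and colour, each point 1 library, bars the group mean and lines the colours of 1 animal. The 3 caMKK6 lines fall from GFP to mCherry for Lmnb2, Hmgb1 and Hmgb2, and the 2 caMEK1 lines rise for Lmna and Hmga1.

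The lower values in caMKK6 mCherry colon cells than in GFP cells were seen in each of the 3 animals. Lmnb2 read 12.7, 11.8 and 10.8 FPKM in mCherry and 15.0, 18.9 and 21.1 in GFP cells. Hmgb1 read 28.1, 15.5 and 25.9 against 44.8, 31.7 and 48.4 FPKM, and Hmgb2 24.8, 10.4 and 19.6 against 45.5, 29.1 and 38.7. The colours did not overlap for any of the 3 genes. The changes were -0.59 ± 0.14 (adjusted p = 0.00516), -0.84 ± 0.22 (adjusted p = 0.0122) and -1.07 ± 0.27 (adjusted p = 0.00863). Without mCherry replicate 2, the lowest library, those of Hmgb1 and Hmgb2 were -0.586 (adjusted p = 0.0825) and -0.728 (adjusted p = 0.0592). Hmgb3 read 11.4, 6.15 and 8.64 against 13.4, 9.33 and 12.6 FPKM, lower in each animal, and was called with the animal as a block (-0.415 ± 0.133, adjusted p = 0.0413) but not without it (adjusted p = 0.19).

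Against control mCherry cells only Lmnb2 fell in caMKK6 mCherry cells (-0.44 ± 0.15, adjusted p = 0.046), a call lost without any one of the 5 libraries (-0.503 to -0.377, adjusted p = 0.0554 to 0.214) and with the animal as a block (adjusted p = 0.0646). Hmgb1 read 18.7 and 28.6 and Hmgb2 18.1 and 24.4 FPKM in the control mCherry cells, overlapping the caMKK6 mCherry cells for both, so the difference from GFP cells did not appear against that control (-0.04 ± 0.25, adjusted p = 0.928, and -0.28 ± 0.30, adjusted p = 0.548). The GFP cells of the caMKK6 mice included the highest Hmgb1 and Hmgb2 libraries of the colon.

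Lmnb1 in colon read 18.8 and 38.2 FPKM in control mCherry cells, 19.6 and 24.9 in caMEK1 and 25.5, 10.996 and 22.0 in caMKK6 mCherry cells. The groups overlapped and neither change was called (-0.27 ± 0.39, adjusted p = 0.661, and -0.52 ± 0.36, adjusted p = 0.325). The control animal of replicate 1 was low in Lmnb1 in both colours (18.8 and 15.2 FPKM) and in Lbr (26.04 and 15.4, against 48.3 and 43.1 in that of replicate 2), and it was high in Lmna (118 in both). With control animals this far apart, changes of Lmnb1 smaller than the spread between them were not detectable. Lbr (15.4 to 48.3 FPKM over the 23 libraries), Hmgb3 (6.15 to 15.4) and Hmga2 (1.11 to 5.60) were likewise called in none of the 8 comparisons in colon.

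Of the 9 members, 2 rose in caMEK1 mCherry colon cells against control (21.5% of 11542 genes called, 9.54% higher) and 1 against GFP cells (13.4%, 5.71% higher). In caMKK6 mCherry cells 1 rose and 1 fell against control (20.8% called, 11.1% higher and 9.7% lower), and 3 were lower than in GFP cells (21.3% called, 13.1% lower). None was called between the kinases (20.7% called, 1 member at an unadjusted p below 0.05, 0 by voom), where Lmna differed by 0.73 ± 0.29 (adjusted p = 0.086) and Hmga1 by 0.64 ± 0.32 (adjusted p = 0.173). Also lower in caMKK6 mCherry than in GFP cells were the lamina partners Nrm (-1.49 ± 0.34), Sun2 (-1.15 ± 0.30) and Sun1 (-0.69 ± 0.16), 3 of 13. So were 4 of 13 histones (H1f3 -1.08 ± 0.33, H2az2 -1.06 ± 0.22, H1f0 -0.63 ± 0.21), and no gene of either list was called higher. Of the 33 proliferation genes 0 were called there, and their sum was 190.6 to 556.5 FPKM in mCherry and 386.6 to 537.4 in GFP cells. Replicate 1 of these mCherry libraries held 179.2 FPKM of EGFP, and replicate 1 of the GFP libraries 115.7 of the MKK6 transgene. In caMEK1 mCherry colon cells the 5 neutrophil markers summed to 590.2 to 1012 FPKM (3 at 1 FPKM or more, Mpo and Retnlg at 0), against 1.802 to 8.026 in control mCherry cells (Retnlg, S100a8 and S100a9 at 0), and their part in the rises of Lmna and Hmga1 was not tested.

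GFP neighbours showed no called member in either tissue. This holds for liver caMEK1 (38.5% of genes called, 1 member at an unadjusted p below 0.05, 1 called by voom) and liver caMKK6 mice (19%, 1 and 1), and for colon caMEK1 (1.33%, 1 and 0) and colon caMKK6 mice (2.6%, 0 and 0). In liver caMEK1 mice 3989 genes were called in these cells, and none of the 8 members was among them, while the median change of all genes was -0.25. With quantile normalization 3 members were called there (Lmnb1 -0.438, Lbr 0.492 and Hmgb1 0.363). Lmnb1 in those cells read 0.641, 0.731 and 1.49 FPKM, against 1.99, 1.73 and 1.13 without doxycycline (-0.43 ± 0.18, adjusted p = 0.0639), and it was called without untreated replicate 3 (-0.575, adjusted p = 0.0298) or treated replicate 3 (-0.621, adjusted p = 0.0115). In liver caMKK6 GFP cells, leaving out treated replicate 2 gave calls of Lmnb2 (-0.718, adjusted p = 0.0259) and Hmgb2 (1.477, adjusted p = 0.0112), and leaving out untreated replicate 3 a call of Lbr (0.699, adjusted p = 0.0233). In colon caMEK1 GFP cells Lmnb1 read 13.9 and 16.7 FPKM, below the untreated 38.3, 28.2 and 24.7 (-0.93 ± 0.36, adjusted p = 0.202). Doxycycline alone, in GFP cells of control mice, called no member in liver (0.0868% of genes, 0 members at an unadjusted p below 0.05, 0 by voom) or colon (0%, 1 and 0).

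Across all 26 groups each member had close companions, by Pearson r of group means of log2(FPKM + 1), which mostly follow the tissues. Lmnb1 lay nearest to Ncapd2 (0.997), Top2a (0.995) and Ccna2 (0.995), and Hmgb2 to Lig1 (0.987), Pkmyt1 (0.985) and Cep89 (0.982). Lmnb2 and Lbr shared Tonsl (0.983 and 0.986) and Slc1a5 (0.983 and 0.982) among their nearest 3. Hmgb1 and Hmgb3 were among each other's nearest (0.979). Lmna lay nearest to Tes (0.988), Gnb1 (0.987) and Ppp4r1 (0.987), Hmga1 to Nap1l4 (0.987), Specc1 (0.985) and Dynll1 (0.984), and Hmga2 to Cdr2 (0.994), Septin11 (0.991) and Aida (0.991). Within a tissue most neighbours in the order of group means did not differ beyond their libraries. In MEFs, 5 of 7 neighbouring pairs overlapped for Lmnb1, 4 of 7 for Hmga1 and 7 of 7 for Hmgb1 and Hmga2, and in colon 8 of 8 did for Lmnb1, Lbr, Hmgb3 and Hmga1.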

How the data were processed

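Bulk RNA sequencing gave 70 libraries: 24 of MEFs, 23 of liver and 23 of colon. Per the submitters' processing notes, the authors used cutadapt 1.12, STAR 2 and mm10. The deposited values are FPKM per gene in 1 table, and the counter and annotation are not given in the sources used here. From the steps of the FPKM values and GENCODE M21 exon lengths, reads were recovered for 21191 of 21859 genes and 668 were not matched, with 100% whole within 0.02 among values under 1000 reads, which gave each library's depth. Of 24 symbols on more than 1 row none is a member.

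For each tissue, 1 limma 3.58.1 fit (R 4.3.3) of log2(FPKM + 1) on group means, with a mean trend, covered genes with at least 1 FPKM in at least 3 (MEF), 2 (liver, colon) or 6 (untreated libraries of all tissues) libraries. Residual degrees of freedom were 16, 14, 14 and 16. Tests were two-sided, adjusted by Benjamini-Hochberg over all genes of a comparison and called below 0.05, with no adjustment across the 31 comparisons. Errors are SE for changes and SD for levels.

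Each result was also computed without the filter, with 0.1 added in place of 1, after quantile normalization or scaling to equal medians, by voom on the recovered reads with TMM factors, with replicate number or animal as a block, and with each library left out. A further alternative changed the comparator: mCherry cells were set against GFP cells of untreated mice of their genotype, and GFP cells against those of treated control mice. Where a group then had 1 library, it was assumed to vary like the other groups. The fit without the caMKK6 MEF libraries that hold the MEK1 transgene above 5 FPKM was added after seeing the data. Same-numbered MEF libraries of 1 kinase deviated together (r = 0.254 to 0.803 over 30 pairs, all above 0.1), so numbers pair libraries within a kinase. The replicate block in MEFs also pairs numbers across the kinases, which was not checked. In tissue, numbers pair the colours of 1 animal by label (r = 0.576 to 0.817 over 5 such liver pairs and 0.396 to 0.536 over 5 colon pairs), and other same-numbered libraries are from different animals. In groups of 2 libraries both pairs have the same r by construction (0.817 in liver caMKK6 and 0.527 in colon caMEK1 mice). The 62 pairs of libraries within groups all differed by more than counting error (mean chi-square 4.34 to 241 per gene). They thus differed by more than 1 library sequenced again would by counting alone. This does not show that MEF libraries came from separate cultures or embryos.

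Members, related lists and markers were chosen with earlier results of these data known. The text names all 9 members, up to 3 called genes with the largest change per related list, and the 3 genes of highest r with each member among genes reaching 5 FPKM, passing over predicted genes. One gene of a related list is not reported here. Promoter sequences came from RefSeq (GRCm38.p6), with 8 of the 9 members matched. No sequence is shown for Lmnb1.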

Additional observations from a re-analysis of the deposited data

Results flagged for a closer look

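In MEFs the changes of 5 members differed between the kinases by a test of the difference itself, in 7 results over the days, given as the log2 change under caMEK1 minus that under caMKK6. At day 2 these were Lmnb2 (0.59), Lmna (0.67) and Hmga1 (0.91). At day 7 they were Lmnb1 (-0.62), Lmna (0.31), Hmga1 (1.82) and Hmga2 (0.56). The kinases shared no control libraries, and 5 of the 12 caMKK6 libraries held the MEK1 transgene. Hmga1 is the member whose 2 groups of day 7 libraries also lay on opposite sides of their untreated libraries, with all 3 higher under caMEK1 and all 3 lower under caMKK6.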

How the results depend on the processing

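Of 95 calls of a member in a comparison, 64 were kept in every alternative run and 31 were lost in at least 1. The counts of members called moved as follows. Without the caMKK6 MEF libraries that hold the MEK1 transgene, chosen after seeing the data, 3 rather than 7 were called at day 4, 5 rather than 9 at day 7, 1 rather than 5 from day 2 to day 4 and 0 rather than 1 from day 4 to day 7. From day 2 to day 4 of caMKK6, 3 were called with no filter and 3 with voom. With median scaling, 2 rather than 4 differed between kinases at day 7. In liver caMEK1 GFP cells, 3 rather than 0 were called with quantile normalization, where Hmgb1 turned to 0.363 from -0.02, and 1 with voom. In liver caMEK1 mCherry against GFP cells, 2 rather than 1 were called with no filter or with the animal block. In liver caMKK6 mCherry cells against control, 1 rather than 2 was called with median scaling, quantile normalization, voom or the other comparator, and in caMKK6 GFP cells 1 rather than 0 with voom. Between the mCherry cells of the kinases in liver, 1 rather than 0 was called with no filter or the animal block and 2 with median scaling, quantile normalization or voom. In colon, 0 rather than 1 was called with no filter for caMEK1 mCherry against GFP cells, and 1 rather than 2 with the animal block for caMKK6 mCherry cells against control. The causes were not tested.

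With the replicate block in MEFs, 2 rather than 1 were called from day 4 to day 7 of caMKK6. The block added 5 member calls: Hmga2 at day 7 of caMEK1 (adjusted p = 0.0239), at day 2 of caMKK6 (0.0161) and from day 4 to day 7 of caMKK6 (0.0374), and Hmgb1 from day 2 to day 4 under each kinase (0.0477 and 0.0471). It changed no other member call in MEFs.

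Leaving out 1 library at a time gave 1 to 2 called at day 2 of caMEK1 and 3 to 7 from day 2 to day 4, and 2 to 4 and 0 to 1 for the steps of caMKK6. In liver it gave 1 to 3 (caMEK1 mCherry against control), 0 to 1 (caMEK1 GFP), 1 to 4 (caMKK6 mCherry against control), 0 to 2 (caMKK6 GFP) and 0 to 1 (between kinases). In colon it gave 1 to 2 and 0 to 1 (caMEK1 mCherry against control and GFP), 0 to 1 and 1 to 3 (caMKK6 likewise) and 0 to 3 (doxycycline alone). Low read numbers limit Lmnb1 (21 to 66 reads) and Hmga2 (0 to 52 reads) in liver, and groups of 2 libraries limit most tissue comparisons.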
